A study of Mus musculus with 30 samples.

Results

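Hippocampal RNA of mice that lack cyclooxygenase-1 (COX-1) was compared with that of their wild-type counterparts on custom nylon cDNA arrays. The comparison comprised 6 of the 30 arrays in the series, 3 of COX-1-/- mice and 3 of COX-1+/+ mice, chosen by the genotype and brain region in their labels. COX-1-/- mice came from matings of null males with heterozygous females, and COX-1+/+ mice from matings between wild types, on a C57BL6/6-129/Ola mixed background, and tissue was taken at 12 weeks of age. Another 9 hippocampus arrays, 3 each of COX-2-/-, COX-2+/- and COX-2+/+ mice of the same background and age, entered the model so that the spread was estimated over 15 arrays. The remaining 15 arrays were of cerebral cortex. The COX-1 and COX-2 heterozygotes that gave rise to these mice were bred as separate lines, so within the COX-1 line genotype and mating scheme cannot be told apart. Whether the 3 arrays of a group stand for 3 mice or for repeated measurements is described in more than 1 way in the sources, so p-values measure only the spread between arrays.

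COX-1, encoded by Ptgs1, is the constitutive form of the enzyme that turns arachidonic acid into prostaglandin H2. Phospholipases release arachidonic acid from membranes, and terminal synthases turn prostaglandin H2 into prostaglandins, prostacyclin and thromboxane, which act on G-protein-coupled receptors, several of which raise cAMP. In brain, COX-1 is prominent in microglia, whereas COX-2 is found in excitatory neurons of the hippocampus and cortex. Arachidonic acid that is not used by the cyclooxygenases can pass to lipoxygenases and epoxygenases.

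The arrays carried 16896 cDNA probes, of which 9663 had 1 gene symbol, 436 had several and 6797 had none. Values were Z scores, which count how many SDs a probe's natural log intensity lies from the mean of its array, taken within each part of 8448 rows. Differences in Z cannot be read as fold changes, and levels of different probes were not compared. Medians of the hippocampus arrays lay between -0.0602 and -0.0419, and arrays correlated at 0.987 to 0.989 within COX-1-/-, at 0.986 to 0.990 within COX-1+/+ and at 0.981 to 0.988 between them. No probe of Ptgs1 was found by symbol, so the deleted gene was not analysed here. Of the probes for markers of hippocampal cells, 5 of 8 for CA1 and subiculum, 9 of 16 for dentate granule cells and 2 of 8 for CA3 and CA2 had a mean Z above 0, the value the study took as expressed. The CA3 and CA2 probes below it included those of Bok, Elavl2 and Nectin3.

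COX-1-/- hippocampus differed from COX-1+/+ hippocampus in small shifts of many probes. Slc35e2, a solute carrier family member, fell by 0.459 in Z, and Psma3, of the 20S proteasome, rose by 0.365. These were the lowest and the highest of the differences among probes with 1 gene symbol that met the study's rule. Of 8058 probes with a mean Z above 0, 25 (0.31%) passed limma at a Benjamini-Hochberg adjusted p under 0.05, of which 17 (0.211%) were higher and 8 (0.0993%) lower in COX-1-/-. At an unadjusted p under 0.05 there were 1322 (16.4%). The study's rule asks for a mean Z above 0, a Z test P under 0.05 and a z ratio beyond 1.5 in size. Its formula as printed divides the group difference in mean Z by the SD of the genes on an array, which Z scaling sets to 1, and no probe met the rule with the difference undivided. The divisor used here was instead the SD of such differences across all probes (0.115), and every count by the rule rests on that choice. In this form it was met by 387 probes (4.8%), 243 higher (3.02%) and 144 lower (1.79%) in COX-1-/-. Among the 4613 tested probes with 1 gene symbol 203 met it (4.4%), 101 higher (2.19%) and 102 lower (2.21%), and they stood for 200 genes. The 3 values of each group did not overlap in 358 of the 387 probes and in 1760 of all tested probes (21.8%), where 940 were higher (11.7%) and 820 lower (10.2%) in COX-1-/-. Since probes were tested by their mean over both groups, one whose lower group averaged 0 or less entered only through the higher group, and had to differ to be tested. This held for 54 of the 387 probes and for 7 of the 25 limma calls, against 289 of all tested probes. Among the 81 named probes described below it held for 16. Of these, 12 were lower in COX-1-/-, those of Slc35e2, Iah1, Dgka, Zfp952, Ptpn21, Nras, Map2k2, Sfpq, Eif4b, Eif1ax, Myh9 and Tcl1b1, and 4 were higher, those of Dnaaf5, Gltp, Mcl1 and Mettl7a1. With 3 arrays against 3, an exact permutation test of a single probe cannot give a two-sided p below 0.1.

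The limma calls rested on the other hippocampus groups and on single arrays. With the 6 compared arrays alone 0 probes passed, and 0 passed without COX-1-/- replicate 2 or without COX-1+/+ replicate 2. Without COX-1-/- replicate 1 or 3 there were 6 and 7, and without COX-1+/+ replicate 1 or 3 there were 3 and 17. By the study's rule 319 to 427 probes were called when an array was left out.

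Differences followed the order of the rows in the table. Neighbouring rows correlated in their difference between COX-1-/- and COX-1+/+ (r = 0.536 over the first 8448 rows and 0.334 over the others, across probes, which are not independent), and so did rows 22 apart (0.483 and 0.359). Of the 387 probes that met the rule, 329 (85.0%) lay in the first 8448 rows, as did 23 of the 25 limma calls, although 3888 of the tested probes lay there and 4170 in the others. Medians of 64 blocks of 264 rows ran between -0.129 and 0.119. Rows 1585 to 1848 held 28 calls that were lower and 2 that were higher, and rows 5545 to 5808 held 29 that were higher and none that was lower. Of 400 tested probes next to a called one, 100 (25%) met the rule in the same direction and 0 in the opposite one. The place of each row on the membrane is not given in the sources used here, and the part of position in these calls was not tested.

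**Figure D1:**
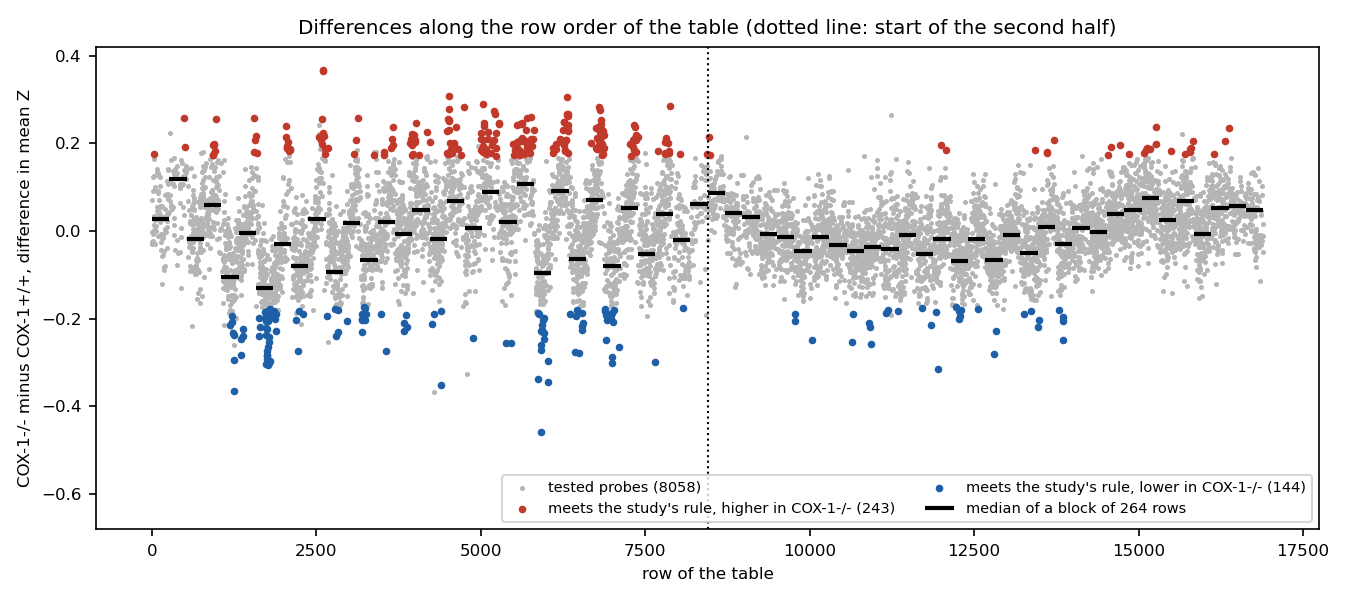
Difference in mean Z between COX-1-/- and COX-1+/+ hippocampus (y axis) by row of the table (x axis), for tested probes in grey, probes that met the rule and were higher in COX-1-/- in red, and those that were lower in blue, with the median of each block of 264 rows in black. Calls of one colour lie together, 85.0% of them before the dotted line, and block medians range between -0.129 and 0.119.

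To see which probes stood out from their neighbours, a running median over each row and the 100 rows on either side, or the median of each block of 264 rows, was taken of each array's deviations from the probe means and subtracted from that array. The rule was then met by 283 probes with the running median, 164 of them among the 387, and by 295 with the block median, 166 of them among the 387. limma called 1 probe with the running median and 2 with the block median. The probe that limma called every time was the row next to Psma3, which carries no gene symbol. Its Z scores were 0.590, 0.586 and 0.609 in COX-1-/- and 0.338, 0.157 and 0.189 in COX-1+/+, and its adjusted p by limma was 0.0167 as deposited, 0.0121 after the running median and 0.00975 after the block median. Of the 81 probes with 1 symbol that met the rule and are named by the criteria under processing, 40 still met it after the running median, 42 after the block median, 34 after both and 33 after neither. When the control was the wild types of the COX-1 and COX-2 lines together, 43 of the 81 met it, and 29 met it whichever single array was left out. The 12 that met it in every one of these 9 settings were Slc35e2, Ptpn21, Cep162, E330034G19Rik, Ilkap and Iah1, which were lower in COX-1-/-, and Mapk13, Abce1, Ttbk2, Mettl7a1, Rbms1 and Timeless, which were higher.

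**Figure D2:**
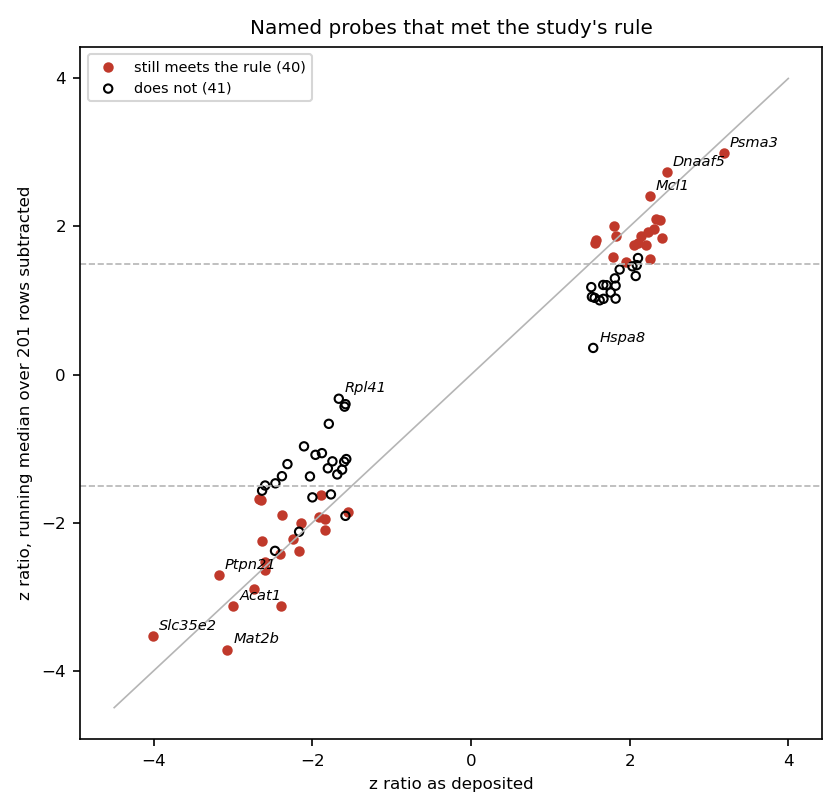
z ratios of the 81 named probes as deposited (x axis) and after the running median along the rows was subtracted from each array (y axis), with filled points for the 40 that still met the rule and open points for those that did not. Slc35e2 and Psma3 kept z ratios of -3.54 and 2.99, whereas that of Dgka was -1.21.

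Among the 25 limma calls, 10 had 1 gene symbol, and the groups did not overlap in any of the 10. Slc35e2, a member of the nucleotide-sugar transporter-like family 35, had Z scores of -0.129, -0.170 and -0.0818 in COX-1-/- and 0.435, 0.307 and 0.255 in COX-1+/+. All 3 COX-1-/- arrays were below 0 and all 3 COX-1+/+ arrays well above it. The difference was -0.459 ± 0.06 (SE, n = 3 each; adjusted p = 0.0153 by limma), a z ratio of -4.01, and the adjusted p was 0.0305 after the block median, 0.0803 after the running median and 0.0609 without COX-1+/+ replicate 2.

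Psma3 encodes an alpha subunit of the 20S proteasome. It had Z scores of 0.699, 0.701 and 0.745 in COX-1-/- and 0.537, 0.346 and 0.167 in COX-1+/+ (difference 0.365 ± 0.0711; adjusted p = 0.046 by limma; z ratio 3.19). The COX-1-/- arrays lay close together and the COX-1+/+ arrays were spread over a wider range below them. A second tested Psma3 probe averaged 0.520 in COX-1-/- and 0.560 in COX-1+/+, a z ratio of -0.347, so the probes of this gene disagreed. The other 35 tested proteasome probes gave no call in either direction.

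Cep162, a protein of the ciliary transition zone, had Z scores of 0.147, 0.0362 and 0.164 in COX-1-/- and 0.451, 0.450 and 0.366 in COX-1+/+ (difference -0.307 ± 0.0479; adjusted p = 0.0264 by limma). Iah1, an esterase, had -0.0516, -0.121 and 0.0569 in COX-1-/- and 0.311, 0.269 and 0.196 in COX-1+/+ (-0.297 ± 0.0547; adjusted p = 0.0459). Both kept their call by the rule after either row adjustment, with z ratios of -1.68 and -2.64 after the running median. A second Iah1 probe had a z ratio of -0.717 and did not meet the rule.

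For these 3 genes, Psma3, Cep162 and Iah1, the 250 bases before the annotated start are shown, since they passed limma, met the rule after both row adjustments and have a single start in the RefSeq table (GRCm38.p6). Capitals mark, on either strand, the letters TGACG, the core of the cAMP response element through which receptors that raise cAMP can act, CCAAT, and GGGCGG, a site bound by Sp1. The Psma3 stretch is chr12:70974373-70974622 on the plus strand, that of Cep162 is chr9:87255533-87255782 on the minus strand, and that of Iah1 is chr12:21316142-21316391 on the plus strand.
Psma3: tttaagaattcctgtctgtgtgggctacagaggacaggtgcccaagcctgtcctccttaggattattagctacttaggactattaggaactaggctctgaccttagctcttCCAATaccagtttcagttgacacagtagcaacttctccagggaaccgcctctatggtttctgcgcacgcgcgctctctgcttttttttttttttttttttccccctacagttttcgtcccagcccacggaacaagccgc
Cep162: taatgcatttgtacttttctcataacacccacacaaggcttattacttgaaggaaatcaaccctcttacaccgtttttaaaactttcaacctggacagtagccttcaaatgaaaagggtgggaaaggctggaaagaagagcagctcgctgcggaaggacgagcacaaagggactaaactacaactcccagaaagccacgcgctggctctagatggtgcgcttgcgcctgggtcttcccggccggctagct
Iah1: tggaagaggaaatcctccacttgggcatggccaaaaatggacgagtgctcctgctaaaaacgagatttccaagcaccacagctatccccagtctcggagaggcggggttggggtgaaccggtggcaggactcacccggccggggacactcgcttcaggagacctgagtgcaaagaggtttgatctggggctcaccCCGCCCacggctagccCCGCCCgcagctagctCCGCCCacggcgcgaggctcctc
TGACG occurred in none of the 3 and in 17.8% of 32851 promoter stretches of this length. CCAAT occurred in Psma3 alone and in 33.8% of all, and GGGCGG occurred 3 times in Iah1, each time as CCGCCC, and in 32.7% of all.

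Wipf1, which binds WASP and regulates actin polymerisation, had Z scores of 0.337, 0.319 and 0.404 in COX-1-/- and 0.0923, 0.117 and 0.0487 in COX-1+/+ (difference 0.267 ± 0.0481; adjusted p = 0.0438 by limma). Dync1i2, an intermediate chain of cytoplasmic dynein, had 1.21, 1.27 and 1.18 in COX-1-/- and 1.01, 0.988 and 1.04 in COX-1+/+ (0.207 ± 0.0392; adjusted p = 0.046). Dph6, an enzyme of diphthamide synthesis on elongation factor 2, had 0.847, 0.928 and 0.857 in COX-1-/- and 0.653, 0.664 and 0.616 in COX-1+/+ (0.233 ± 0.0418; adjusted p = 0.0438). These 3 and Psma3 were the named genes that rose, and Wipf1 and Dync1i2 kept their call by the rule after both row adjustments, whereas Dph6 kept it after the block median alone. With the wild types of both lines as control Wipf1 and Dync1i2 did not meet the rule.

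Dgka, the kinase that turns diacylglycerol into phosphatidic acid, fell in COX-1-/-, with Z scores of -0.166, -0.142 and -0.0346 against 0.165, 0.137 and 0.150 in COX-1+/+ (difference -0.265 ± 0.0423; adjusted p = 0.0264 by limma). It did not meet the rule after either row adjustment, and it lies 3 rows from Cep162. Its mean over both groups was 0.018, so it was tested through its COX-1+/+ values alone. The zinc finger gene Zfp952 had -0.0781, -0.119 and -0.127 in COX-1-/- and 0.215, 0.0916 and 0.114 in COX-1+/+ (adjusted p = 0.0459). The transcript E330034G19Rik had 0.168, 0.127 and 0.233 in COX-1-/- and 0.534, 0.470 and 0.429 in COX-1+/+ (adjusted p = 0.0405), whereas another of its probes had a z ratio of 0.740.

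**Figure D3:**
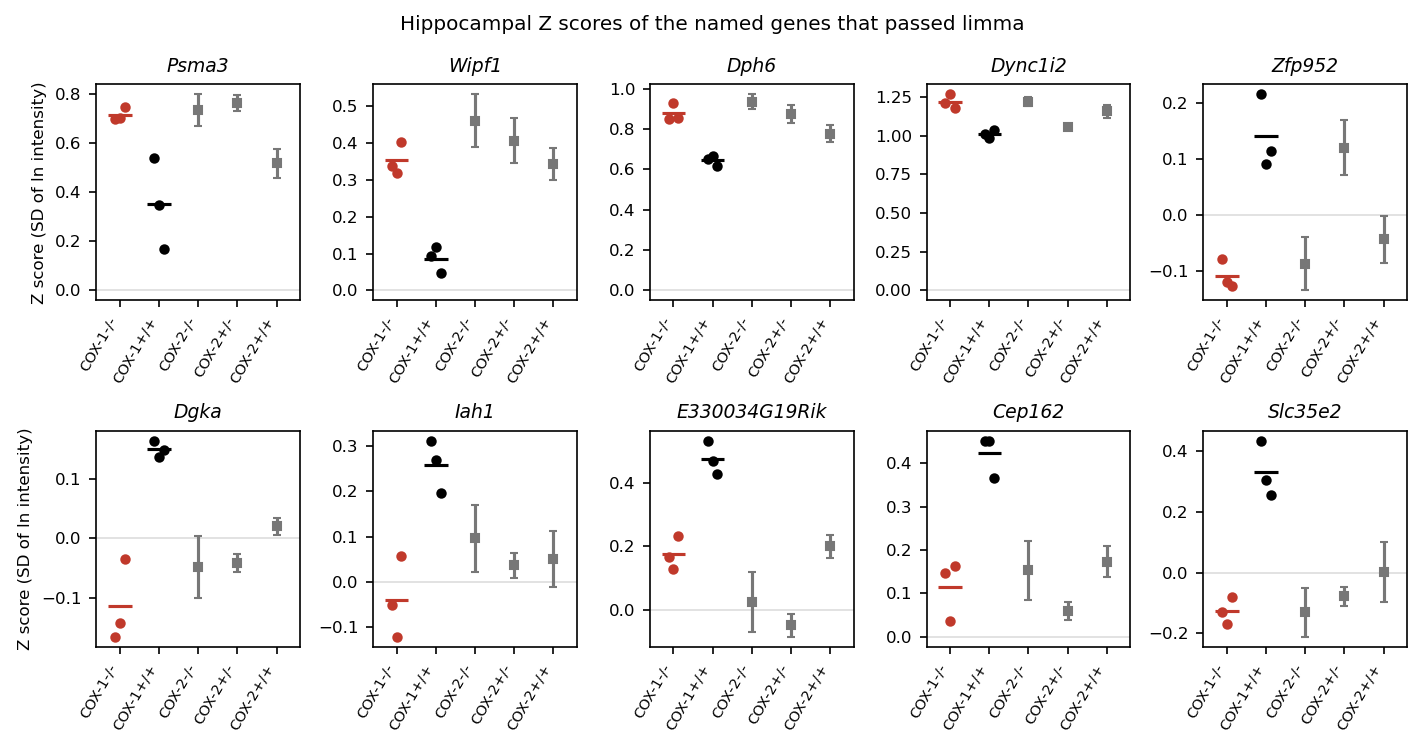
Z scores (y axis) of the 10 named genes that passed limma in the hippocampus, with the 3 COX-1-/- arrays as red points, the 3 COX-1+/+ arrays as black points, their means as bars, and COX-2-/-, COX-2+/- and COX-2+/+ as grey squares with SD (n = 3 each). Red and black points do not overlap in any panel, and for Slc35e2 the COX-2 groups average -0.131, -0.078 and 0.001, beside the COX-1-/- mean of -0.127.

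Protein kinase cascades held 6 calls by the rule among 29 tested probes (20.7%, against 4.8% of all tested probes), 3 higher and 3 lower in COX-1-/-, and the median difference of the list was 0.0184. Apart from Dgka, none of its members passed limma. The 3 lower calls, those of Dgka, Map2k2 and Nras, were tested through their COX-1+/+ values alone and had to differ to be tested. Mapk13, the p38 delta kinase of the stress response, had Z scores of 0.828, 0.981 and 0.791 in COX-1-/- and 0.600, 0.677 and 0.615 in COX-1+/+ (z ratio 2.06; adjusted p = 0.136 by limma). The groups did not overlap, and Mapk13 met the rule in every setting listed above.

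Rps6ka3, the ribosomal S6 kinase RSK2 that acts below ERK, had 0.295, 0.266 and 0.101 in COX-1-/- and 0.0238, -0.0384 and 0.0608 in COX-1+/+ (z ratio 1.79; adjusted p = 0.085). Stk11, the kinase LKB1 that activates AMPK, had 2.11, 2.17 and 2.08 in COX-1-/- and 1.79, 1.94 and 2.0 in COX-1+/+ (z ratio 1.81), and no longer met the rule after either row adjustment (z ratios 1.30 and 1.47). Rps6ka3 met it after the running median but not after the block median (1.59 and 1.39). On the lower side, Map2k2, the ERK kinase MEK2, had 0.0069, -0.0405 and -0.0310 in COX-1-/- and 0.271, 0.158 and 0.157 in COX-1+/+ (z ratio -1.89). Nras, the small GTPase that starts this cascade, had -0.0406, -0.0189 and -0.0705 in COX-1-/- and 0.385, 0.173 and 0.140 in COX-1+/+ (z ratio -2.41), while a second Nras probe had a z ratio of 0.896. The groups did not overlap on the called probes of Rps6ka3, Map2k2 and Nras. The called probes of Map2k2 and Nras lie in the same block of rows, whose median difference was -0.0632, and both met the rule after either row adjustment. Neither met it with the wild types of both lines as control, and Map2k2 met it in 5 of the 6 sets with 1 array left out.

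JAK, STAT and cytokine signalling held 2 calls by the rule among 15 tested probes (13.3%, against 4.8% of all tested probes). Of the 15, 6 did not overlap between the groups (40%, against 21.8% of all tested probes). Jak1, a kinase of cytokine receptors, had Z scores of 0.183, 0.180 and 0.175 in COX-1-/- and -0.0626, 0.0092 and 0.0548 in COX-1+/+ (difference 0.178; adjusted p = 0.0776 by limma; z ratio 1.56). Stat3, a transcription factor that JAK kinases phosphorylate, had 0.610, 0.667 and 0.643 in COX-1-/- and 0.906, 0.799 and 0.756 in COX-1+/+ (difference -0.180; adjusted p = 0.109; z ratio -1.57). The kinase was higher and the factor lower, neither met the rule after either row adjustment, and Jak1 met it in 2 of the 6 sets with 1 array left out. Both tested probes of Jak2 lay near the middle of all differences, with z ratios of 0.475 and -0.304. Among the inhibitors of the pathway, Socs3 had a z ratio of 0.608 and Cish one of -0.967, and neither met the rule.

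The enzymes and receptors around COX-1 itself gave 1 call among 8 tested probes of the prostanoid list (12.5%, against 4.8% of all tested probes). Ptgr1, which inactivates leukotriene B4 and prostaglandin metabolites, had Z scores of -0.0297, -0.0347 and 0.0954 in COX-1-/- and 0.144, 0.287 and 0.221 in COX-1+/+ (z ratio -1.81; adjusted p = 0.117 by limma). It did not meet the rule after either row adjustment. Ptges, the inducible prostaglandin E synthase, had 0.650, 0.670 and 0.647 in COX-1-/- and 0.835, 0.782 and 0.787 in COX-1+/+ (z ratio -1.28; adjusted p = 0.279), and Ptgis, the prostacyclin synthase, had 1.77, 1.78 and 1.75 in COX-1-/- and 1.82, 1.81 and 1.82 in COX-1+/+ (z ratio -0.413; adjusted p = 0.540). These 3 of the 8 tested probes did not overlap between the groups (37.5%, against 21.8% of all tested probes), and all 3 were lower in COX-1-/-. After the running median the z ratios of Ptges and Ptgis were -0.115 and -0.0573. The receptor Ptger2 had a z ratio of 0.207, the cytosolic synthase Ptges3 one of 0.155, and the transporter Slco2a1 one of -0.632.

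Of the phospholipases and other genes of arachidonic acid release, 13 probes were tested and 0 met the rule. Limma passed 0 of them after adjustment and 4 at an unadjusted p under 0.05, against 16.4% of all tested probes. Pla2g4a, the cytosolic phospholipase A2 that supplies arachidonic acid, had 0.121, 0.119 and 0.0750 in COX-1-/- and 0.259, 0.206 and 0.156 in COX-1+/+ (z ratio -0.894; adjusted p = 0.255 by limma), without overlap between the groups. Pla2g6, the calcium-independent phospholipase, had a z ratio of 0.570. Among 6 tested probes of lipoxygenases, leukotriene and epoxygenase genes 5 had the lower mean in COX-1-/- and 0 met the rule, with a median difference of -0.101 against -0.000923 over all tested probes. The lower ones included Lta4h, the leukotriene A4 hydrolase (z ratio -1.02), and Ephx2, the soluble epoxide hydrolase (z ratio -1.02). Their adjusted p values by limma were 0.347 and 0.272. The others that were lower were Gpx4, Gpx1 and Alox5ap, with z ratios of -1.09, -0.755 and -0.222. Alox12, the only lipoxygenase tested, was higher, with a z ratio of 0.163. After the running median the z ratios of Lta4h, Ephx2, Gpx4, Gpx1 and Alox5ap were -0.649, -1.07, -0.838, -0.204 and 0.0791.

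Enzymes of acetyl-CoA and methionine metabolism gave single, large differences. Acat1, the mitochondrial acetoacetyl-CoA thiolase, had Z scores of 0.152, 0.0007 and 0.410 in COX-1-/- and 0.564, 0.531 and 0.498 in COX-1+/+ (difference -0.344 ± 0.0877; adjusted p = 0.085 by limma; z ratio -3.0). The COX-1-/- arrays were spread widely and all lay below the COX-1+/+ arrays. Acat1 met the rule after both row adjustments, but not with the wild types of both lines as control, and lies in the row next to Iah1. It was the only call among 26 tested probes of fatty acid oxidation, acetyl-CoA and ketone enzymes (3.85%, against 4.8% of all tested probes). Acly, which makes cytosolic acetyl-CoA, had a z ratio of -1.31, and Hsd17b10, of isoleucine and steroid oxidation, one of -0.318.

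Mat2b, the regulatory subunit of the enzyme that makes S-adenosylmethionine, had 0.20, -0.0431 and 0.354 in COX-1-/- and 0.743, 0.502 and 0.321 in COX-1+/+ (difference -0.352; adjusted p = 0.182 by limma; z ratio -3.07). COX-1-/- replicate 3 lay above COX-1+/+ replicate 3, and the rule was met in 2 of the 6 sets without 1 array. Among the 13 tested probes of methionine and one-carbon metabolism Mat2b was the only call. Of the 13, 3 had the higher mean in COX-1-/-, against 49.4% of all tested probes.

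Chaperones and heat shock proteins held 8 calls among 67 tested probes (11.9%, against 4.8% of all tested probes), 4 higher and 4 lower. The median difference was -0.0182. Of the 8, 2 met the rule after the running median and 0 after the block median. On the higher side were 2 probes of Hsp90aa1, the inducible cytosolic HSP90, 1 of Hspa8, the constitutive HSC70, and 1 of Pdia4, a disulfide isomerase of the endoplasmic reticulum. Hsp90aa1 had 0.785, 0.837 and 0.817 in COX-1-/- and 0.559, 0.691 and 0.563 in COX-1+/+ on the probe at row 7310, and 1.22, 1.37 and 1.5 in COX-1-/- and 1.22, 1.11 and 1.14 in COX-1+/+ on that at row 5792, with z ratios of 1.82 and 1.83. Its other 5 probes had z ratios of -0.496 to 1.46. On the lower side were Cct3 and Cct6a, subunits of the cytosolic chaperonin, Hspe1, the mitochondrial co-chaperonin, and Dnajb4, an HSP40, with z ratios of -1.63, -2.16, -2.11 and -1.60. Another 3 tested probes of Cct3, none of which met the rule, had z ratios of -0.800 to -0.158.

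Ubiquitin conjugation and deubiquitination held 5 calls among 73 tested probes (6.85%, against 4.8% of all tested probes). The deubiquitinases Usp1 and Usp37 were higher by the rule, with z ratios of 1.87 and 1.76, and Usp5, which disassembles free ubiquitin chains, Usp39 and the conjugating enzyme Ube2r2 were lower, with -2.60, -1.58 and -1.69. None of the 5 met the rule after the running median. Usp5 had Z scores of 0.223, 0.0475 and 0.207 in COX-1-/- and 0.545, 0.507 and 0.316 in COX-1+/+, without overlap.

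Translation factors and tRNA synthetases held 5 calls among 70 tested probes (7.14%, against 4.8% of all tested probes). All 5 were lower in COX-1-/-, where 1.79% of all tested probes were lower by the rule. They were Eif4b, which aids the helicase that unwinds messenger RNA, Eif3b, a subunit of the scaffold on the small ribosomal subunit, Eif1ax, which takes part in start codon selection, Eef1g, of the elongation factor complex, and Eif4e, the cap-binding protein. The called probes of Eif4b and Eif1ax were tested through their COX-1+/+ values alone and had to differ to be tested. Eif4b had -0.0315, -0.191 and 0.120 in COX-1-/- and 0.324, 0.191 and 0.153 in COX-1+/+ (z ratio -2.24; adjusted p = 0.0898 by limma). Eif4e had 0.104, -0.0247 and 0.144 in COX-1-/- and 0.290, 0.223 and 0.245 in COX-1+/+ (z ratio -1.56; adjusted p = 0.113). These 2 were the ones that met the rule after both row adjustments, but neither met it with the wild types of both lines as control. A second tested Eif4b probe had a z ratio of 1.08, and further tested Eif4e probes had 0.647 and -0.574, so the probes of both genes disagreed. Over the list 28 of 70 probes had the higher mean in COX-1-/-, against 49.4% of all tested probes.

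Mitochondrial ribosomal proteins held 2 calls among 28 tested probes (7.14%, against 4.8% of all tested probes), Mrpl12 and Mrpl4 of the large subunit. Mrpl12 had 0.0534, 0.0552 and 0.141 in COX-1-/- and 0.284, 0.347 and 0.437 in COX-1+/+ (difference -0.273 ± 0.0549; adjusted p = 0.0534 by limma; z ratio -2.38). Mrpl4 had 0.622, 0.529 and 0.670 in COX-1-/- and 0.859, 0.787 and 0.831 in COX-1+/+ (z ratio -1.91). Both were lower without overlap and met the rule after both row adjustments. With the wild types of both lines as control neither met it, and the z ratio of Mrpl4 was 1.09, in the opposite direction. Cytosolic ribosomal proteins gave 2 calls among 114 tested probes (1.75%), Rps15a higher and Rpl41 lower, neither of which met the rule after a row adjustment. Among 48 tested probes of oxidative phosphorylation subunits 0 met the rule and 0 passed limma, with differences between -0.127 and 0.171. An unadjusted p under 0.05 by limma was found for 3 of the 48, against 16.4% of all tested probes.

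Actin, tubulin, motor and WASP family genes held 6 calls among 87 tested probes (6.9%, against 4.8% of all tested probes), 4 higher and 2 lower. Besides Wipf1 and Dync1i2 they were Kif7, a kinesin of Hedgehog signalling in cilia, and Stmn3, a neuronal protein that destabilises microtubules, both higher, and Kif16b, an endosomal kinesin, and Myh9, a non-muscle myosin, both lower. Stmn3 had 0.114, 0.232 and 0.201 in COX-1-/- and -0.0142, -0.0134 and 0.0393 in COX-1+/+ (z ratio 1.56). Its z ratio was 1.77 after the running median and 3.0 after the block median. The probe lies at row 1593, in a block whose median difference was -0.129, whereas the 4 rows within 2 of it had a median of -0.0179. It did not meet the rule with the wild types of both lines as control. In the 6 sets with 1 array left out, Stmn3 met the rule in 2. Cilium and centrosome genes held 3 calls among 22 tested probes (13.6%), all lower in COX-1-/-, where 1.79% of all tested probes were lower by the rule. Besides Cep162 they were Ift20, of intraflagellar transport, with 0.284, 0.0797 and 0.252 in COX-1-/- and 0.428, 0.567 and 0.531 in COX-1+/+ (z ratio -2.65; adjusted p = 0.0649 by limma), and Bbs4, of the BBSome, with z ratios of -1.96 on the called probe and 0.123 on another. Cep162 and Ift20 lie at rows 1765 and 1738, within the block whose median difference was -0.129, and their z ratios after the running median were -1.68 and -1.70. Bbs4 did not meet the rule after either row adjustment, with z ratios of -1.08 and -1.34, and Ift20 did not meet it with the wild types of both lines as control.

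**Figure D4:**
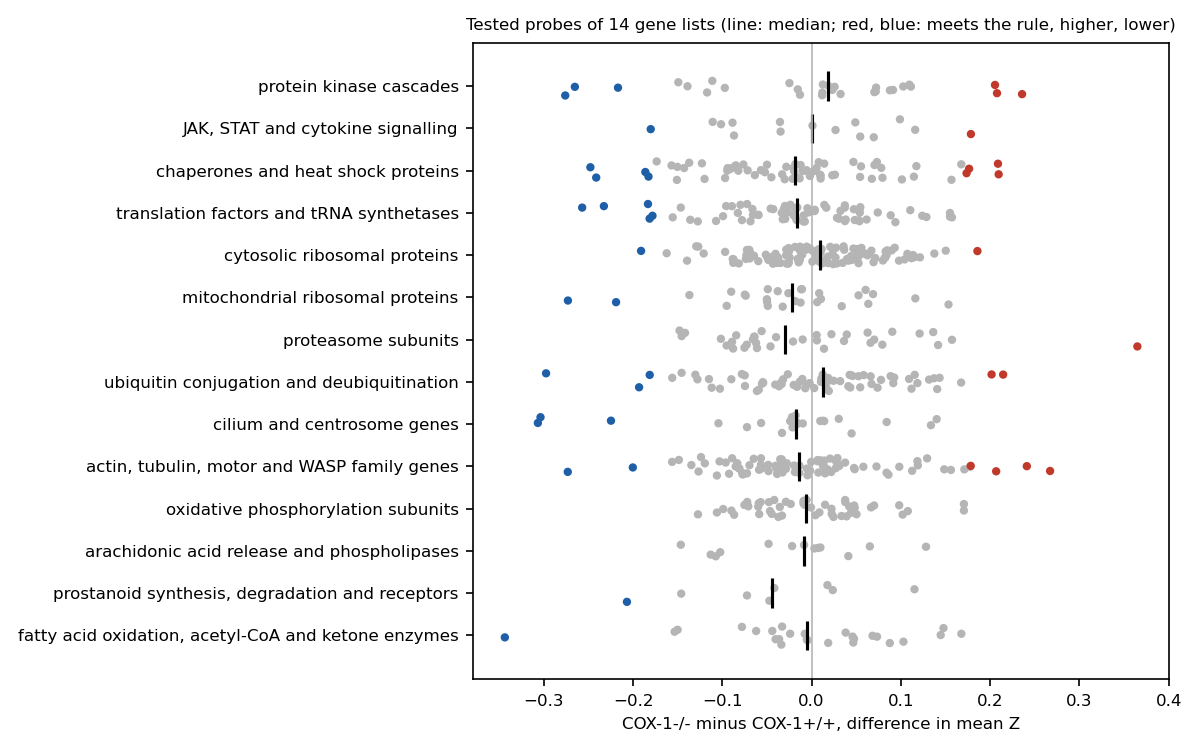
Difference in mean Z between COX-1-/- and COX-1+/+ hippocampus (x axis) for the tested probes of 14 gene lists (rows), with the median of each list as a line and probes that met the rule in red (higher in COX-1-/-) or blue (lower). Calls in translation factors and in cilium genes are all blue, 5 of 70 and 3 of 22 probes. Those of Eif4b and Eif1ax were tested through their COX-1+/+ values alone. Of all tested probes 1.79% were lower by the rule, and the list medians lie close to 0.

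Outside these lists, named genes with low z ratios included Ptpn21 (-3.18), a tyrosine phosphatase with a FERM domain, Omt2b (-2.74), Wbp4 (-2.63), a spliceosomal protein with WW domains, Ilkap (-2.60), a phosphatase that acts on integrin-linked kinase, and Gatad2a (-2.47), of the NuRD complex, beside E330034G19Rik (-2.64) and Iah1 (-2.59) described above. Ptpn21 had 0.0695, -0.173 and -0.0587 in COX-1-/- and 0.319, 0.269 and 0.343 in COX-1+/+ (difference -0.364 ± 0.0735; adjusted p = 0.0534 by limma), without overlap, and met the rule in every setting listed above. With the wild types of both lines as control the z ratio of Omt2b was 0.0361. Wbp4 was lower on each of its probes, with 0.354, 0.0869 and 0.377 in COX-1-/- against 0.686, 0.490 and 0.547 in COX-1+/+ on the first and a z ratio of -1.99 on the second. Neither met the rule after the running median.

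The highest z ratios after Psma3 were those of Dnaaf5 (2.47), an assembly factor of axonemal dynein, Rbms1 (2.41), which binds nucleic acids, Ipo5 (2.38), a nuclear import receptor, Wipf1 (2.33) and Prdm2 (2.30), a histone methyltransferase. Rbms1 had 0.376, 0.561 and 0.364 in COX-1-/- and 0.229, 0.145 and 0.10 in COX-1+/+ (difference 0.275 ± 0.0616; adjusted p = 0.0730 by limma), and its other tested probes had z ratios of 1.52, which met the rule, and 0.724. The anti-apoptotic Mcl1 had 0.125, 0.124 and 0.295 in COX-1-/- and -0.211, -0.0762 and 0.0583 in COX-1+/+ (z ratio 2.25). Ttbk2, a kinase of tau and tubulin, had 2.33, 2.36 and 2.35 in COX-1-/- and 2.04, 2.07 and 2.18 in COX-1+/+ (z ratio 2.21). Timeless, a protein of the replication fork, had 0.265, 0.326 and 0.360 in COX-1-/- and 0.144, 0.103 and 0.0344 in COX-1+/+ (z ratio 1.95; adjusted p = 0.0546 by limma), and a second probe had a z ratio of 0.866. Rbms1, Mcl1, Ttbk2 and Timeless were each higher in COX-1-/- without overlap on the probe described.

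Solute carriers gave 3 calls among 72 tested probes (4.17%), splicing factors and hnRNPs 2 among 61 (3.28%), and small GTPases and their regulators 1 among 46 (2.17%). Of all tested probes 4.8% met the rule. In the first of these lists Slc30a9, a zinc transporter family member, was higher (0.496, 0.468 and 0.399 in COX-1-/- and 0.231, 0.317 and 0.276 in COX-1+/+; z ratio 1.57), and Slc35a4 was lower beside Slc35e2. Sfpq, a splicing factor of paraspeckles, was lower, with -0.0466, -0.122 and -0.0850 in COX-1-/- and 0.275, 0.157 and 0.0505 in COX-1+/+ (z ratio -2.14), while its 3 other tested probes had z ratios of -0.714 to 0.253. NF-kappaB and Toll-like receptor signalling gave 1 call among 13 tested probes, for Bcl10, an adaptor of immune receptors (z ratio -1.79), and nuclear receptors and corepressors 1 among 15, for the corepressor Nab1 (z ratio 1.82). No call by the rule or by limma was made among 17 tested probes of synaptic vesicle and SNARE genes and 6 of glutamate receptors and synaptic scaffold. The same held for 2 of GABA and glycine neurotransmission and 8 of immediate early genes. Over these 4 lists, 4 probes in all had an unadjusted p under 0.05 by limma, against 16.4% of all tested probes.

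Other probes of the same gene rarely met the rule. Of the genes with a call, 53 had more than 1 tested probe. Their 56 called probes stood beside 77 that did not meet the rule, of which 44 had the same sign as the called probe. More than 1 probe met it for 3 genes, Wbp4, Rbms1 and Hsp90aa1, each time in the same direction. Abce1, which recycles ribosomes, was higher on 1 probe (0.936, 1.04 and 0.828 in COX-1-/- and 0.635, 0.742 and 0.691 in COX-1+/+; z ratio 2.14), whereas its 2 other tested probes had z ratios of -0.436 and -0.227.

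Markers of the cell types of the hippocampus mostly gave no call. Among tested probes, 0 of 11 for astrocytes, 0 of 18 for endothelial cells, pericytes and meninges, 0 of 9 for dentate granule cells, 0 of 5 for CA1 and subiculum and 0 of 2 for CA3 and CA2 met the rule. Limma passed none of these 45 probes after adjustment, against 0.31% of all tested probes. An unadjusted p under 0.05 was found for 3 of them, against 16.4% of all tested probes. Pan-neuronal markers gave 1 call among 7 tested probes, for Stmn3, and 3 of the 7 did not overlap between the groups (42.9%, against 21.8% of all tested probes), 2 of them higher and 1 lower in COX-1-/-. Microglia and macrophage markers gave 2 calls among 6 tested probes (33.3%, against 4.8% of all tested probes), both lower. Of the 6, 4 did not overlap (66.7%), 1 of them higher and 3 lower. The mean over these 6 probes was 1.04 to 1.07 in the COX-1-/- arrays and 1.11 to 1.12 in the COX-1+/+ arrays. Over the 4 that did not meet the rule it was 0.971 to 1.01 in COX-1-/- and 0.959 to 1.03 in COX-1+/+. The called probes were Entpd1 and Ctsz. They were set apart by their difference in these same arrays, so the split does not test where a shift lay.

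Entpd1, the ectonucleotidase CD39 that degrades extracellular ATP and is found on microglia, had 0.145, -0.0162 and -0.0632 in COX-1-/- and 0.154, 0.223 and 0.319 in COX-1+/+ (z ratio -1.84; adjusted p = 0.136 by limma). Ctsz, a lysosomal cathepsin, had 2.37, 2.27 and 2.27 in COX-1-/- and 2.69, 2.39 and 2.48 in COX-1+/+ (z ratio -1.88; adjusted p = 0.151). Entpd1 met the rule after both row adjustments and Ctsz after neither. C1qb and C1qc, parts of the first complement component made by microglia, had z ratios of -0.835 and 0.648, so they had opposite signs, and Fcgr1 and Lyz2 had z ratios of -0.157 and 0.426. Other markers of these cells, among them C1qa, Irf8, Laptm5, Selplg and Fcer1g, had a mean Z below 0 and were not tested. Fewer cells of a type and less RNA per cell cannot be told apart in tissue RNA. Cryab, a small heat shock protein on the oligodendrocyte list, had 0.489, 0.30 and 0.476 in COX-1-/- and 0.786, 0.545 and 0.622 in COX-1+/+ (z ratio -2.0), and did not meet the rule after either row adjustment. Of 18 tested blood probes 1 met the rule, for Hba-a2, and other probes of that gene had z ratios of -0.309 to 0.211.

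Set beside all 5 hippocampal groups, the COX-1+/+ arrays held the extreme mean more often than the COX-1-/- arrays did. COX-1+/+ had the highest or the lowest of the 5 group means in 327 of the 387 probes that met the rule (84.5%) and COX-1-/- in 173 (44.7%). Over all tested probes these shares were 47.3% and 37.2%. Of the 25 limma calls, COX-1+/+ was at an extreme in 25 and COX-1-/- in 9. Slc35e2 averaged -0.127 in COX-1-/-, -0.131 in COX-2-/-, -0.078 in COX-2+/-, 0.001 in COX-2+/+ and 0.332 in COX-1+/+, so only the COX-1+/+ group was well above 0. Wipf1 averaged 0.353 in COX-1-/-, 0.461 in COX-2-/-, 0.406 in COX-2+/-, 0.343 in COX-2+/+ and 0.086 in COX-1+/+. Acat1 averaged 0.187 in COX-1-/-, 0.060 in COX-2-/-, -0.054 in COX-2+/-, 0.073 in COX-2+/+ and 0.531 in COX-1+/+.

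The wild types of the COX-1 line differed from those of the COX-2 line in 423 of 8054 tested probes by limma (5.25%). Of the 387 probes 73 were among the 423, as were 11 of the 25 limma calls. Both contrasts use the same COX-1+/+ arrays, so a deviation of these arrays enters both and overlap was favoured. Those of the 11 with 1 gene symbol were Slc35e2, Cep162, Wipf1, E330034G19Rik, Iah1, Zfp952 and Dync1i2. In 197 of the 387 the mean of COX-2+/+ lay closer to that of COX-1-/- than to that of COX-1+/+. The same count over all tested probes was not taken, so this one has no background. For Rbms1 and Ttbk2 the wild types of the lines were close to each other. They averaged 0.158 in COX-1+/+ and 0.178 in COX-2+/+ for Rbms1 (adjusted p = 0.883 by limma). For Ttbk2 they averaged 2.10 in COX-1+/+ and 2.11 in COX-2+/+ (adjusted p = 0.905 by limma). In COX-1-/- the means were 0.433 for Rbms1 and 2.35 for Ttbk2. The part of genotype and of line in the calls cannot be told apart where the wild types of the lines differ.

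The effect of COX-1 loss was tested against that of COX-2 loss in hippocampus, where COX-2-/- and COX-2+/+ arrays gave 329 calls by the rule among 8040 tested probes (4.09%). The 2 effects differed in 0 probes by limma after adjustment (smallest adjusted p = 0.607) and in 607 (7.55%) at an unadjusted p under 0.05. COX-2-/- against COX-2+/+ likewise gave 0 limma calls, and 985 (12.3%) without adjustment. The calls of the lines shared 49 probes, 12.7% of those of COX-1 and 14.9% of those of COX-2, of which 48 had the same direction. Among the named probes 11 met the rule the same way in both lines, and they stood for 10 genes. Mapk13 had z ratios of 2.06 with loss of COX-1 and 2.23 with loss of COX-2, Psma3 of 3.19 and 2.06, Rbms1 of 2.41 and 1.81, Timeless of 1.95 and 1.81, Thap11, a zinc finger transcription factor, of -1.85 and -1.94, and Entpd1 of -1.84 and -1.94. For Slc35e2 and Acat1 the z ratios were -4.01 and -3.0 with loss of COX-1 and -1.27 and -0.121 with loss of COX-2, and the test of the difference gave an adjusted p of 0.607 for each.

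The effect of COX-1 loss in hippocampus was also tested against that in cortex, over 4127 probes of the last 8448 rows, because in the other rows 5 of the 6 COX-1 cortex arrays held the same values. The effects differed in 112 probes by limma over all 30 arrays (2.71%), of which 48 were more positive and 64 more negative in hippocampus. After median centring there were 79, 48 of them more positive and 31 more negative. With the 12 COX-1 arrays alone 0 probes passed, and after the running median 18 did. Of the 112, 14 also met the rule in hippocampus, and in all 14 the effects had opposite signs. Both criteria use the hippocampus effect, so opposite signs were favoured by how the 14 were picked.

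Mapk13 showed the largest gap among the named genes. It averaged 0.866 in COX-1-/- and 0.631 in COX-1+/+ hippocampus, against 0.760 in COX-1-/- and 1.39 in COX-1+/+ cortex, so the effects were 0.236 and -0.634 and differed by 0.87 (adjusted p = 0.00911 by limma). Dync1i2 averaged 1.22 in COX-1-/- and 1.01 in COX-1+/+ hippocampus and 1.02 in COX-1-/- and 1.13 in COX-1+/+ cortex (difference of the effects 0.316; adjusted p = 0.0122). Both also passed after the running median, with adjusted p values of 0.032 and 0.010. For Rps6ka3, Stat3 and Cryab the effects differed by 0.322, -0.250 and -0.313, with adjusted p values of 0.0168, 0.0410 and 0.0468, and these 3 did not pass after the running median.

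**Figure D5:**
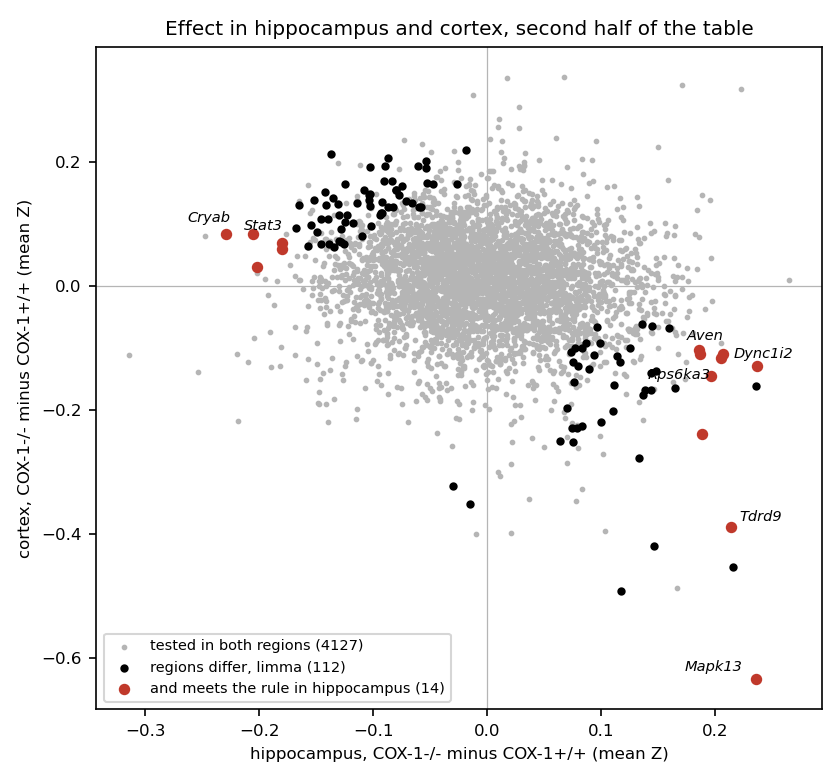
Difference in mean Z between COX-1-/- and COX-1+/+ mice in hippocampus (x axis) and in cortex (y axis) for 4127 probes in grey, with the 112 whose effects differed by limma in black and the 14 of these that met the rule in hippocampus in red. Mapk13 lies at 0.236 in hippocampus and -0.634 in cortex.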

How the data were processed

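Total RNA was labelled by reverse transcription with radiolabelled dCTP, hybridised to nylon cDNA membranes and read by the authors with a phosphoimager and ArrayPro. The deposited values are the authors' Z scores, that is natural log intensity less the mean over the SD. The mean and SD were those of a part of 8448 rows of an array, since each part had been standardised on its own. Sequencing depth does not apply to arrays, and their number, 3 per group, limits the precision. The 15 hippocampus arrays were modelled as 5 group means (limma 3.58.1, R 4.3.3) with Benjamini-Hochberg adjustment over probes with a mean Z above 0, and the study's rule, with the SD of all differences as the divisor of the z ratio, was applied beside it. Files were read with data.table (version 1.17.8), Python 3.11.15, pandas 2.3.3 and numpy 2.4.6, and drawn with matplotlib 3.10.9. Named genes were those the paper's text names for hippocampus (17 of 22 with a probe), those passing limma, the 15 highest and 15 lowest z ratios without overlap, called members of the gene lists, and other probes of all these. Members and lists were chosen with earlier results of these data known. The remaining genes of that text were not analysed here. Scripts were tested on simulated data. Alternatives were other scalings, filters, controls, array sets, row adjustments, an intensity trend, a replicate block and leaving out each array. The row adjustment by block, and the running median in the tests between lines and regions, were added after the data were seen.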

Additional observations from a re-analysis of the deposited data

Results flagged for a closer look

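For 5 genes that met the rule in COX-1 hippocampus, the effect of COX-1 loss differed between hippocampus and cortex by the contrast of the effects in limma over all 30 arrays. For Mapk13 the effect in hippocampus minus that in cortex was 0.87 (adjusted p = 0.00911; 0.236 in hippocampus and -0.634 in cortex). For Rps6ka3 it was 0.322 (adjusted p = 0.0168; 0.205 and -0.117), and for Dync1i2 it was 0.316 (adjusted p = 0.0122; 0.207 and -0.109). For Cryab it was -0.313 (adjusted p = 0.0468; -0.229 and 0.0837), and for Stat3 it was -0.25 (adjusted p = 0.041; -0.180 and 0.0698). With the 12 COX-1 arrays alone the adjusted p values by limma were 0.101 for Mapk13, 0.206 for Rps6ka3, 0.187 for Dync1i2, 0.259 for Cryab and 0.217 for Stat3. After the running median they were 0.0323, 0.109, 0.0103, 0.168 and 0.174 in the same order of genes. Groups of 3 arrays are too small for a test of single outlying arrays.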

How the results depend on the processing

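The 25 limma calls became 1 after the running median, 2 after the block median, 110 without a filter, 0 at a mean Z above 0.5, 0 with the 6 compared arrays, 169 with all 30 arrays and 138 with an intensity trend, and 0 to 17 without 1 array. The 387 calls by the study's rule became 1242 without a filter, 165 at a mean Z above 0.5, 111 at a z ratio beyond 2, 0 when the difference was not divided and 153 as means over the probes of a gene, and 319 to 427 without 1 array. The 112 differences from cortex became 195 without a filter, 64 at a mean Z above 0.5, 0 with the 12 COX-1 arrays, 18 after the running median and 33 to 92 without 1 array. The cause of these changes was not tested. Without 1 array, 212 to 280 of the 387 were still called. Median centring, quantile normalization and wild types of both lines gave 28, 36 and 31 limma calls and 436, 399 and 435 by the rule. The difference from COX-2 gave 0 in each alternative.

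With the replicate block limma gave 13 calls, 411 met the rule and 130 differed from cortex. Deviations of arrays with the same number correlated at 0.145, -0.0886 and 0.0218 for replicates 1, 2 and 3. Correlations between arrays of different numbers were not set beside these, so whether the numbers pair the arrays was not tested.

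Of the z ratios of named probes, 1349 values over all alternatives stayed on the same side of the rule, 379 no longer met it, 2 newly met it and 16 changed sign. After the running median the z ratio was -0.267 for Map4 and -0.287 for Slc6a13. After the block median it was -0.102 and 0.379 for the tested probes of Jak2, -0.427 for Map4 and -0.172 for Slc6a13. With wild types of both lines as control it was 1.09 for Mrpl4, 0.0361 for Omt2b, 0.516 for the second probe of Mat2b, -0.0379 for a probe of Syncrip that did not meet the rule and -0.153 for the second of Timeless. Without 1 array it was -0.924 to 0.796 for the dim probe of Jak1 (as reported 0.127), -0.650 to 0.0575 for a probe of Jak2 (-0.304) and -0.0348 to 0.42 for Map4 (0.246). Precision is limited by 3 arrays per group and by the large share of probes near background.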
